A study of Mus musculus with 4 samples.

Results

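The genes described here carry out silencing by small RNAs, and their messages were measured in mouse satellite cells, which are muscle stem cells, grown in culture. The set was chosen by gene symbol and holds 10 of the 54446 rows of the expression table, with 1 row per symbol. It covers the Argonautes Ago1, Ago2, Ago3 and Ago4, the ribonucleases Dicer1 and Drosha, the Drosha partner Dgcr8, and the GW182 genes Tnrc6a, Tnrc6b and Tnrc6c. The knockdown group (n = 2) was C57BL/6 hindlimb satellite cells that received siRNA directed at the long non-coding RNA LncMyoD. The control group (n = 2) was cells of the same strain and source given control siRNA. Cells of both groups were cultured in F10 medium with 10% HS, and the protocol gives 48 h of siRNA treatment. The protocol attached to the control libraries names LncMyoD as the target too, so the groups rest on the titles, descriptions and treatment tags. No row carried the name LncMyoD (0 rows), so the target itself was not analysed here and the knockdown could not be checked. Every library came from cells that had received siRNA, and cells without siRNA were not analysed here. Whether replicates were separate cultures or animals is not in the labels. The p-values therefore reflect only how far these samples spread, and that spread may be technical.

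MicroRNAs are transcribed as long primary transcripts that fold into hairpins. In the nucleus Drosha and Dgcr8, together called the Microprocessor, cut out the hairpin, and in the cytoplasm Dicer1 trims it to a short duplex. One strand is loaded into an Argonaute and guides it to messenger RNAs, and GW182 proteins bound to the Argonaute recruit the enzymes that shorten poly(A) tails and remove caps. A synthetic siRNA joins this pathway as a duplex ready for loading, and Ago2 is the mammalian Argonaute known for cutting a fully matched target. In muscle the pathway is known for the microRNAs that accumulate as myoblasts differentiate. The libraries held polyadenylated RNA, so the values are messenger RNA levels of the machinery, not levels of microRNAs, siRNA strands or proteins.

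Levels are in FPKM, which divides fragments by transcript length and by the mapped total, so that different genes can be set side by side. Library totals lay between 317223 and 322496 FPKM, and correlations of log2 values across the 10900 genes tested, which are not independent replicates, lay between 0.971 and 0.979. An FPKM of 1 on a transcript of 1 kilobase corresponded to 36.7 to 41.1 reads of 150 nt per library. Satellite cell and myoblast markers summed to 4467 and 4085 FPKM in knockdown cells and 5464 and 5183 FPKM in control cells, and most of this was Myog, a factor of differentiating myoblasts, with 3406 and 2793 FPKM in knockdown cells and 4196 and 3931 FPKM in control cells. Without Myog the sums overlapped, at 1061 and 1292 FPKM in knockdown cells and 1268 and 1252 FPKM in control cells. Of these 10 markers, 9 were tested, 4 with positive and 5 with negative log2 fold changes. By limma 0 were called, against 0.0550% of all genes tested, and 2 had an unadjusted p under 0.05, against 7.08%. Both knockdown values lay above both control values for 2, Cd34 and Vcam1, where 22.1% of all genes tested did so. They lay below for 3, Myog among them, where 16.3% of all genes tested did so. The part of these markers in the values below was not tested. Fibro-adipogenic progenitor markers summed to 0.671 and 1.00 FPKM in knockdown cells and 0.953 and 0.379 FPKM in control cells, with 0 of 7 at a mean of 1 FPKM. Blood cell markers summed to 0.284 and 1.07 FPKM in knockdown cells and 1.16 and 0.641 FPKM in control cells, with 0 of 7 at that mean and 4 of 7, Ptprc among them, at 0 in every library. Endothelial markers summed to 2.73 and 1.34 FPKM in knockdown cells and 0.905 and 2.06 FPKM in control cells, with Kdr at 0 throughout and Tek as the 1 of 6 at a mean of 1 FPKM. Pericyte and Schwann cell markers summed to 2.21 and 1.69 FPKM in knockdown cells and 1.93 and 1.80 FPKM in control cells, with 1 of 7 at that mean. In these bulk samples fewer cells of a type and less RNA per cell cannot be told apart.

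Some of the machinery's messages themselves carry microRNA hairpins, and those sequences are shown because they lie in exons counted for the member genes. Dgcr8 holds a pair of them in exon 2 of its longest coding transcript, and the Microprocessor is known to cut a hairpin in the Dgcr8 message. The hairpin of miR-1306 lies in coding sequence at chr16:18284239-18284317 (minus strand, GRCm38.p6), and that of miR-3618 lies in the 5′ UTR. Tnrc6b holds miR-5113 in the 3′ UTR, in exon 25 of its longest coding transcript, on the plus strand of chromosome 15. The RefSeq sequences follow from 5′ to 3′, with the seed (bases 2 to 8 of each mature strand) in capitals.
mir-1306 hairpin: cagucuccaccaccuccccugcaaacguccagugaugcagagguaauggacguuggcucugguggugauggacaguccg
miR-1306-5p: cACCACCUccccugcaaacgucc
miR-1306-3p: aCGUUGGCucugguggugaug
miR-3618-5p: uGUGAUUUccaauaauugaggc
miR-3618-3p: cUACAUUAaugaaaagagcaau
miR-5113: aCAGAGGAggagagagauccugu
Each of these 5 seeds belonged to 1 of the 1738 mature mouse sequences in the RefSeq table, so no pair of them shared a seed. The expression table has rows of their own for these hairpin genes. Mir1306 had 0.164 and 0.102 FPKM in knockdown cells, against 0.133 and 0.135 FPKM in control cells. Mir5113 had 0.128 and 0.141 FPKM in knockdown cells, against 0.0733 and 0.0951 FPKM in control cells. Gm24572, the row of miR-3618, did not pass 0.0398 FPKM in any library. All of these values were low, and since 100% of the bases of each row are also exons of its host, reads of a hairpin row and its host cannot be told apart.

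The members stood at very different levels. In order of the mean over the 4 libraries they were Ago2 at 10.3 FPKM, Drosha at 6.81, Dgcr8 at 3.91, Tnrc6a at 1.39, Dicer1 at 1.09, Ago1 at 0.986, Tnrc6c at 0.961, Ago3 at 0.773, Tnrc6b at 0.584 and Ago4 at 0.255. The ranges over the 4 libraries did not overlap between Ago2 and Drosha, Drosha and Dgcr8, Dgcr8 and Tnrc6a, Ago3 and Tnrc6b, or Tnrc6b and Ago4. From Tnrc6a down to Ago3 each neighbour in the order overlapped the next, while the lowest Tnrc6a value lay above every value of Ago1 and Ago3. Ago2 lay above 59.2% of the genes tested and Drosha above 49.3%, while Tnrc6a lay above 7.98% and Dicer1 above 2.39%.

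**Figure D1:**
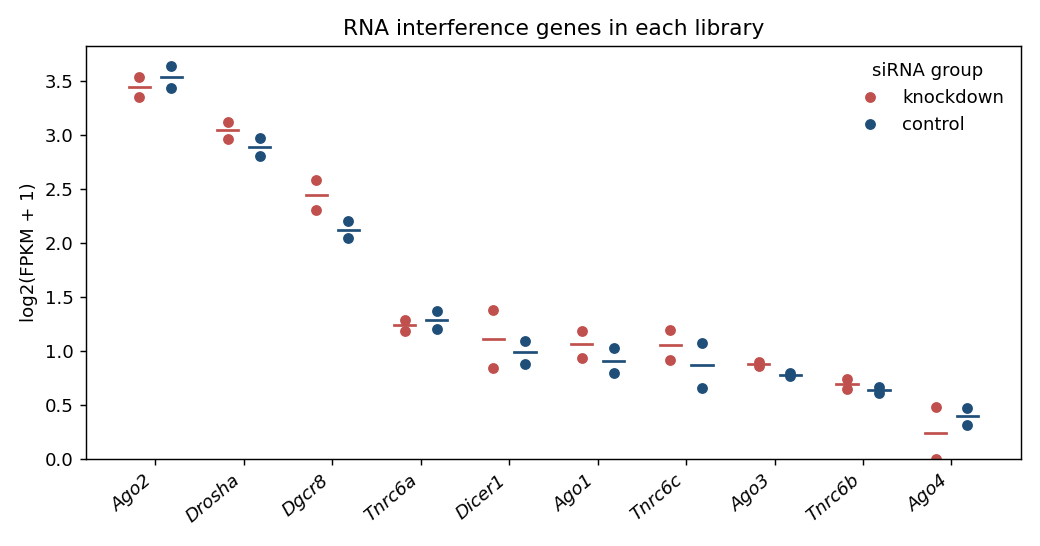
Level of each RNA interference gene as log2(FPKM + 1), with 1 point per library and a bar for the mean of each group (n = 2); knockdown is red and control is blue. Ago2, Drosha and Dgcr8 stand above the other members in all 4 libraries, and the groups separate only for Dgcr8 and Ago3.

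The first comparison asked whether the machinery differed between knockdown and control cells. The limma test on log2(FPKM + 1) took in genes that averaged 1 FPKM or more, and 5 of the 10 members passed this filter: Ago2, Drosha, Dgcr8, Tnrc6a and Dicer1. Of these, 0 were called higher and 0 were called lower at an adjusted p of 0.05, where 0.00917% of the 10900 genes were called higher and 0.0459% lower (0.0550% in either direction). At an unadjusted p under 0.05 there were 0 members as well, against 7.08% of all genes tested. In a fit of the 24969 rows above 0 in some library, which includes all 10 members, 0 members had an unadjusted p under 0.05. The median log2 fold change of the 5 members tested was 0.12, and that of all genes tested was 0.03. Both knockdown values lay above both control values for 2 members, Dgcr8 and Ago3, and below for 0; among all rows above 0 in some library those shares were 16.8% and 13.5%. A share of 2 in 10 is near that background.

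Of the 10 members Dgcr8 had the largest log2 fold change on the log2(FPKM + 1) scale, and it did not pass the test. That scale makes fold changes of low genes too small. The ratio of means was further from 1 for Ago4, at 0.634, where knockdown replicate 1 was listed at 0. Dgcr8 (ENSMUSG00000022718, chromosome 16, 18253948 to 18289246, minus strand, GRCm38), the RNA-binding partner of Drosha, had 3.93 and 4.998 FPKM in knockdown cells, against 3.11 and 3.59 FPKM in control cells. Both knockdown values were above both control values, with the higher of the knockdown libraries standing apart from the rest. The means were 4.47 ± 0.753 FPKM in knockdown and 3.35 ± 0.340 in control (SD, n = 2 each), a ratio of 1.33. The log2 fold change was 0.32 ± 0.21 (SE) with a 95% interval of -0.18 to 0.83 and a limma adjusted p of 0.768, which did not pass the test. The mean difference was larger than the SD of either group. The log2 fold change became 0.47 when knockdown replicate 1 was dropped and 0.18 when knockdown replicate 2 was. A share of 10.7% of the exonic bases of Dgcr8 is also exon of Trmt2a on the other strand, and whether reads were counted by strand is not stated. Another row, Gm49776, shares 4.25% of them on the same strand and was listed at 0 in both knockdown libraries and control replicate 1, against 1.58 FPKM in control replicate 2. Adding only the hairpin rows Mir1306 and Gm24572 to Dgcr8 gave 4.10 and 5.10 FPKM in knockdown cells. The control values were then 3.28 and 3.73 FPKM, and the log2 fold change was 0.31. Gm49776 was not in these sums, so they leave out its 1.58 FPKM in control replicate 2. Adding 1.58 FPKM to 3.73 FPKM would put control replicate 2 above both knockdown sums, so the groups would then overlap. No fold change was fitted with Gm49776 added.

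Drosha (ENSMUSG00000022191, chromosome 15, 12824815 to 12935291, plus strand), the nuclear ribonuclease that cuts primary microRNA transcripts, had 7.69 and 6.78 FPKM in knockdown cells, against 5.97 and 6.82 FPKM in control cells. The groups overlapped, since knockdown replicate 2 was just below control replicate 2. Its log2 fold change was 0.16 ± 0.17 (SE), with a 95% interval of -0.27 to 0.58 and a limma adjusted p of 0.878. Drosha messages outnumbered those of Dgcr8 per length in every library, by 1.95 and 1.36 times in knockdown and by 1.92 and 1.90 times in control. The libraries in which this ratio was lowest and Dgcr8 highest were the same, knockdown replicate 2.

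Dicer1 (ENSMUSG00000041415, chromosome 12, 104687742 to 104751952, minus strand), the cytoplasmic ribonuclease that makes the mature duplex, had 1.60 and 0.785 FPKM in knockdown cells, against 0.837 and 1.13 FPKM in control cells. The knockdown libraries held both the highest and the lowest value, so the groups overlapped fully. The log2 fold change was 0.12 ± 0.27 (SE), with a 95% interval of -0.54 to 0.78 and a limma adjusted p of 0.948, and it was -0.15 without knockdown replicate 1 and 0.39 without knockdown replicate 2. Drosha stood above Dicer1 in all 4 libraries, by 4.82 and 8.64 times in knockdown and by 7.13 and 6.05 times in control. The summed level of Dicer1, Drosha and Dgcr8 was 13.2 and 12.6 FPKM in knockdown cells, against 9.91 and 11.5 FPKM in control cells. Both knockdown sums were above both control sums, a difference of 2.16 FPKM, and the exact two-sided permutation p was 0.333, the smallest that 2 against 2 samples allow. Without control replicate 1 the difference was 1.35 FPKM.

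**Figure D2:**
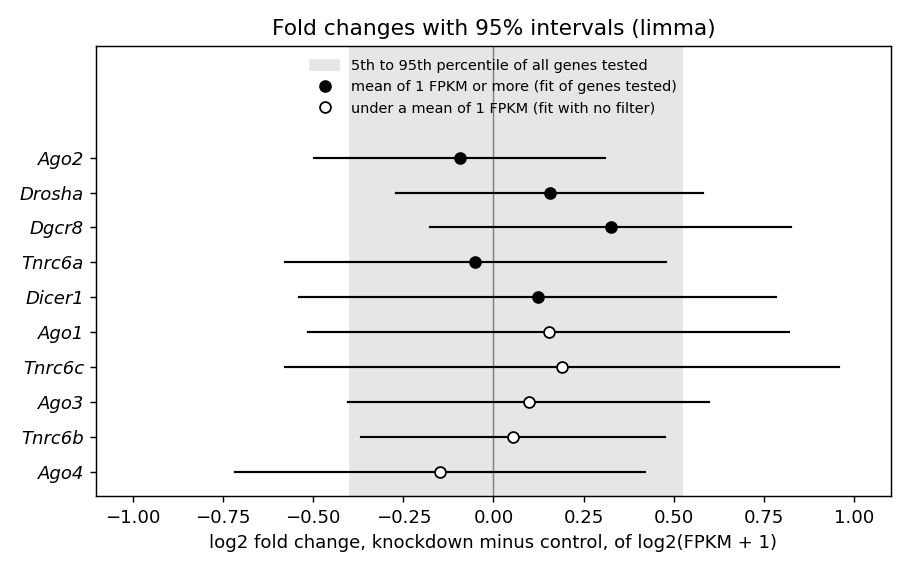
Log2 fold change of each member, as knockdown less control in log2(FPKM + 1) units, with its 95% interval from limma; filled points come from the fit of the 10900 genes tested and open points from the fit with no filter, and the grey band runs from -0.40 to 0.52, the 5th to the 95th percentile of all genes tested. All 10 intervals include 0, and all 10 points lie inside the band. Open points are members under a mean of 1 FPKM, whose fold changes come out too small on this scale. Their place inside a band of higher genes therefore says little.

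Ago2 made up most of the Argonaute message. Ago2 (ENSMUSG00000036698, chromosome 15, 73095844 to 73184935, minus strand), the Argonaute known for target cutting, had 10.6 and 9.20 FPKM in knockdown cells, against 9.79 and 11.5 FPKM in control cells. The groups overlapped, with the lowest value in knockdown replicate 2 and the highest in control replicate 2. The means were 9.89 ± 0.985 FPKM in knockdown and 10.6 ± 1.18 in control (SD, n = 2 each). The log2 fold change was -0.09 ± 0.17 (SE), with a 95% interval of -0.50 to 0.31 and a limma adjusted p of 0.930, and it was 0.01 without control replicate 2. If all its fragments came from its longest coding transcript of 13800 bases, these values would rest on 5210.3 to 6173 reads per library, the most of any member. Chrac1, on the other strand, overlaps 1.56% of its exonic bases.

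Ago1, Ago3 and Ago4, which load small RNAs and act mainly by repressing or destabilising messages, lie side by side on the minus strand of chromosome 4 within 201769 bases. Ago1 (ENSMUSG00000041530, 126435012 to 126468583) had 1.27 and 0.912 FPKM in knockdown cells, against 0.727 and 1.03 FPKM in control cells. Ago3 (ENSMUSG00000028842, 126331704 to 126429556) had 0.855 and 0.811 FPKM in knockdown cells, against 0.699 and 0.727 FPKM in control cells. The Ago1 groups overlapped and the Ago3 groups did not. Ago4 (ENSMUSG00000042500, 126489541 to 126533472) was listed at 0 in knockdown replicate 1 and at 0.396 FPKM in knockdown replicate 2, against 0.387 and 0.238 in control. On its coding transcript of 6537 bases the values above 0 would rest on 60.7 to 106 reads, so the listed 0 stands apart from the other libraries. Knockdown replicate 1 listed 89 rows at 0 that had at least 0.2 FPKM in each of the other libraries, and the other libraries listed 37, 58 and 61 such rows.

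By the fit with no filter, the log2 fold change of Ago1 was 0.15 with a 95% interval of -0.51 to 0.82 and a limma adjusted p of 0.891, and leaving out 1 library gave values between 0.03, when knockdown replicate 1 was dropped, and 0.28, when knockdown replicate 2 was. That of Ago3 was 0.10 with an interval of -0.40 to 0.60 and an adjusted p of 0.910, although its replicates lay close together in both groups. That of Ago4 was -0.15 with an interval of -0.72 to 0.42 and an adjusted p of 0.873, and it was 0.09 without knockdown replicate 1. Ago2 exceeded Ago1 by 8.34 to 13.5 times and Ago3 by 11.3 to 15.8 times over the 4 libraries.

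The make-up of the family was close in all libraries. Ago2 took 83.3% and 81.3% of the summed Argonaute FPKM in knockdown, against 84.4% and 85.2% in control. Both knockdown shares were below both control shares, and the difference was -2.49 percentage points, with an exact two-sided permutation p of 0.333, the smallest the design allows. Without knockdown replicate 2 it was -1.48 percentage points. Ago1 took 9.99% and 8.06% in knockdown against 6.27% and 7.67% in control, and Ago3 took 6.72% and 7.17% against 6.02% and 5.40%. The summed Argonaute level was 12.7 and 11.3 FPKM in knockdown cells, against 11.6 and 13.5 FPKM in control cells, with overlapping groups and an exact permutation p of 0.667. The difference of the sums was -0.52 FPKM, and it was 0.18 and 0.41 without knockdown replicate 2 and control replicate 2.

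**Figure D3:**
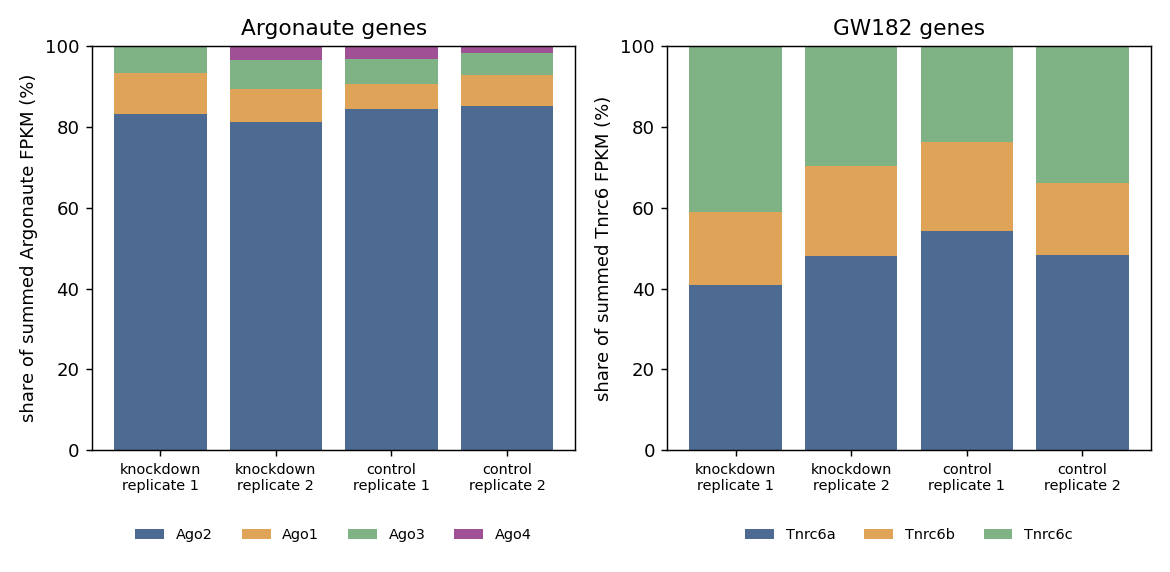
Share of each gene in the summed FPKM of its family, in percent, for each library, with Argonaute genes on the left and GW182 genes on the right. Ago2 takes between 81.3% and 85.2% in every library, while the 3 GW182 genes divide their sum more evenly.

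The GW182 genes had low levels, and their groups overlapped. Tnrc6a (ENSMUSG00000052707, chromosome 7, 123123885 to 123195296, plus strand) had 1.28 and 1.43 FPKM in knockdown cells, against 1.302 and 1.57 FPKM in control cells. Its groups overlapped, and its log2 fold change was -0.05 ± 0.22 (SE) with a 95% interval of -0.58 to 0.48 and a limma adjusted p of 0.971; without control replicate 2 it was 0.03. Tnrc6b (ENSMUSG00000047888, chromosome 15, 80711313 to 80941085, plus strand) had 0.564 and 0.663 FPKM in knockdown cells, against 0.525 and 0.583 FPKM in control cells. Tnrc6c (ENSMUSG00000025571, chromosome 11, 117654289 to 117763439, plus strand) had 1.29 and 0.884 FPKM in knockdown cells, against 0.572 and 1.104 FPKM in control cells. Both were under the filter and their groups overlapped, with the lowest Tnrc6c value in control replicate 1. By the fit with no filter the log2 fold changes were 0.05 (95% interval -0.37 to 0.47) for Tnrc6b and 0.19 (-0.58 to 0.96) for Tnrc6c, and with 1 library left out they ran from 0.0093 to 0.098 for Tnrc6b, both ends set by leaving out a knockdown library, and from -0.02 without control replicate 1 to 0.40 without control replicate 2 for Tnrc6c.

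Tnrc6a took 40.8% and 48.0% of the summed GW182 level in knockdown, against 54.3% and 48.2% in control. The knockdown shares were below the control shares, although knockdown replicate 2 and control replicate 2 differed by little, and the exact two-sided permutation p was 0.333, the smallest the design allows. The difference was -6.85 percentage points, and it became -3.26 when knockdown replicate 1 was dropped, -10.5 when knockdown replicate 2 was, and -3.83 when control replicate 1 was. With quantile normalization it was -6.66 percentage points, and the exact permutation p was 0.667, above the smallest the design allows. The summed level was 3.13 and 2.98 FPKM in knockdown cells, against 2.40 and 3.26 FPKM in control cells, with an exact permutation p of 1. The difference was 0.22 FPKM, and it was -0.03 with quantile normalization and -0.21 without control replicate 1. Argonaute messages outnumbered GW182 messages per length in every library, by 4.07 and 3.80 times in knockdown and by 4.84 and 4.13 times in control.

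The members share long transcripts, a feature that the choice of symbols did not use, while their promoter windows differed among themselves. Their longest coding transcripts ran from 4320.0 bases for Dgcr8 to 17332 for Tnrc6b, and all 10 were longer than the median of 2963 bases over 9350 tested coding genes. The length of Ago2 lay at the 99.7th percentile and that of Drosha at the 78.0th. RefSeq promoter windows were found for 9 of the 10 members, all but Ago2, in 11 entries. The 250 bases before each start were searched on both strands. The E-box CANNTG, the letters bound by Myod1 and related factors, was present in 3 of 11 entries, where 66.2% of 32851 mouse windows of the same length held it. The form CAGCTG was present in 0 of 11 entries, against 13.0% of all windows. The GC box GGGCGG was present in 7 of 11 entries, against 32.7% of all windows. The Ago1 entries overlap and hold the same GC boxes, so this promoter is counted more than once. The GC content of the entries ran from 42.4% for Tnrc6a to 85.6% for Ago4, and the median of all windows was 52.4%. A match is a description of letters and not a binding site.

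The second comparison set the members beside 9 lists of related genes. These cover partners of the members, and also the PIWI clade and transcripts that host microRNAs. Of 134 symbols 127 had a row, and 94 genes were tested. By limma 0 were called in either direction, against 0.0550% of all genes tested, with a lowest adjusted p of 0.649. An unadjusted limma p under 0.05 was found for 7, against 7.08% of all genes tested. A share of 7 in 94 is near that background. Log2 fold changes were positive for 48 and negative for 46. Both knockdown values lay above both control values for 21 and below for 20, where 22.1% and 16.3% of all genes tested did so. Named genes below did not pass the threshold, and their values are given as measured. In each list with genes tested they are the pair of lowest unadjusted p and the most abundant gene. Groups that stand apart are therefore to be expected in the pair.

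The nuclear partners of Drosha and the export factors had small fold changes. All 12 were tested, with a median log2 fold change of -0.02 and values from -0.14 to 0.07. Hnrnpa1, an RNA-binding protein that aids processing of some primary transcripts, had 127 and 125 FPKM in knockdown cells, against 139 and 136 FPKM in control cells (limma adjusted p 0.789). Ncbp2, a cap-binding protein, had 31.8 and 31.0 FPKM in knockdown cells, against 32.7 and 34.1 FPKM in control cells. For both genes the knockdown values were below the control values. Ran, the GTPase that drives export of precursors by Xpo5, was the most abundant, with 416 and 458.4 FPKM in knockdown cells against 461 and 438 FPKM in control cells.

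Dicer partners and the chaperones that open Argonaute for loading had a median of -0.0022 over 14 tested genes, 7 positive and 7 negative. Fkbp4, a co-chaperone of Hsp90, had 218 and 241 FPKM in knockdown cells, against 193 and 201 FPKM in control cells (limma adjusted p 0.698). Tsn, a subunit of the nuclease that removes the passenger strand, had 20.7 and 20.1 FPKM in knockdown cells, against 17.8 and 16.9 FPKM in control cells. In both genes the knockdown values were the higher ones. Hspa8, a constitutive Hsp70 chaperone and the most abundant of the list, had 966 and 985 FPKM in knockdown cells against 1028 and 829 FPKM in control cells, with overlapping groups.

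Genes of let-7 precursor control and small RNA turnover had a median of -0.06 over 9 tested genes, and 2 of 11 rows were at 0 in every library. Tut4, a uridylyltransferase of microRNA precursors, had 1.48 and 1.39 FPKM in knockdown cells, against 0.660 and 0.740 FPKM in control cells. Eri1, an exonuclease that limits small RNA levels, had 10.9 and 11.8 FPKM in knockdown cells, against 8.32 and 10.1 FPKM in control cells. The knockdown values were the higher ones for both, with log2 fold changes of 0.52 and 0.28 and limma adjusted p-values of 0.698 and 0.760. Xrn2, a nuclear exonuclease and the most abundant of the list, had 59.997 and 55.2 FPKM in knockdown cells against 62.2 and 66.3 FPKM in control cells.

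Factors that associate with Argonaute had a median of 0.0014 over 10 tested genes. Gemin5, an RNA-binding protein of the SMN complex, had 7.98 and 5.24 FPKM in knockdown cells, against 4.62 and 4.72 FPKM in control cells. Fmr1, the fragile X RNA-binding protein, had 5.99 and 5.14 FPKM in knockdown cells, against 4.02 and 4.63 FPKM in control cells. Both were higher in each knockdown library, with log2 fold changes of 0.40 and 0.30 and limma adjusted p-values of 0.749 and 0.767. Fxr1, a relative of Fmr1 and the most abundant of the list, had 34.2 and 29.7 FPKM in knockdown cells against 27.9 and 29.9 FPKM in control cells.

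Deadenylation genes, which act after GW182 binding, had a median of 0.05 over 17 tested genes, 11 positive and 6 negative. Tob1, which links RNA-binding proteins to the CCR4-NOT deadenylase, had 14.3 and 16.7 FPKM in knockdown cells, against 21.3 and 20.5 FPKM in control cells. Btg2, a relative of Tob1, had 25.2 and 27.4 FPKM in knockdown cells, against 33.9 and 31.7 FPKM in control cells. Their log2 fold changes of -0.41 and -0.31 had limma adjusted p-values of 0.649 and 0.692. Cnot8, a catalytic subunit and the most abundant of the list, had 49.4 and 50.3 FPKM in knockdown cells against 54.8 and 53.5 FPKM in control cells.

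Decapping, decay and repression genes had a median of 0.12 over 13 tested genes, 7 positive and 6 negative. Edc3, a scaffold that enhances decapping, had 9.21 and 9.64 FPKM in knockdown cells, against 6.30 and 6.95 FPKM in control cells. Patl1, which couples deadenylation to decapping, had 6.05 and 6.15 FPKM in knockdown cells, against 4.16 and 4.31 FPKM in control cells. Both were picked for the lowest unadjusted p of the list. Their knockdown values lay above their control values, as for 22.1% of all genes tested. The log2 fold changes were 0.45 ± 0.16 and 0.44 ± 0.17 (SE), and the limma adjusted p-values were 0.661 and 0.692. Eif4e2, a cap-binding repressor and the most abundant of the list, had 29.1 and 27.2 FPKM in knockdown cells against 29.4 and 28.2 FPKM in control cells.

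Of the genes for double-stranded RNA binding and editing, 4 of 8 were tested, with a median of 0.12. Sidt2, a lysosomal membrane protein related to a double-stranded RNA transporter of worms, had 9.08 and 6.45 FPKM in knockdown cells, against 4.43 and 6.38 FPKM in control cells (log2 fold change 0.45, limma adjusted p 0.730). Stau2, a double-stranded RNA-binding protein, had 5.69 and 5.45 FPKM in knockdown cells, against 6.56 and 6.76 FPKM in control cells. Stau1, its relative and the most abundant of the list, had 16.9 and 15.7 FPKM in knockdown cells against 15.8 and 13.1 FPKM in control cells. The PIWI clade and its partners, which serve the germline small RNA pathway, had 0 of 10 genes above the filter and 4 at 0 in every library; the highest mean was 0.504 FPKM for Piwil4, singled out after its values were seen.

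Transcripts that host microRNAs had a median of -0.08 over 15 tested genes, 6 positive and 9 negative, with values from -0.92 to 0.60. Pank3, a pantothenate kinase gene, had 4.49 and 3.46 FPKM in knockdown cells, against 2.36 and 2.16 FPKM in control cells. Smc4, a condensin subunit gene, had 31.7 and 37.9 FPKM in knockdown cells, against 25.8 and 27.0 FPKM in control cells. The log2 fold changes of 0.60 and 0.38 had limma adjusted p-values of 0.653 and 0.655. H19, a non-coding transcript that is also a microRNA precursor and the most abundant of the list, had 66.1 and 145 FPKM in knockdown cells, against 157 and 81.7 FPKM in control cells. The groups overlapped, with the lowest value in knockdown replicate 1 and the highest in control replicate 1. Of 1190 rows named as single microRNA genes, 822 were at 0 in every library and 20 had a mean of at least 1 FPKM.

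**Figure D4:**
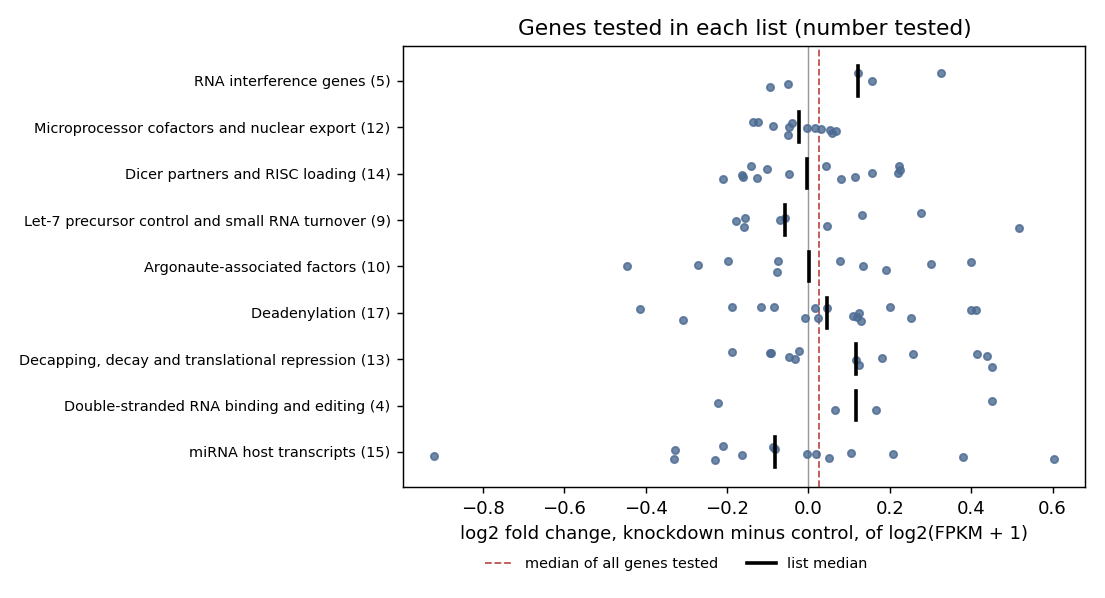
Log2 fold change (knockdown less control, in log2(FPKM + 1) units) of each gene tested in the RNA interference set and in 8 lists of related genes. Each point is 1 gene, black bars are list medians and the dashed line is the median of all genes tested, 0.03. The list medians lie between -0.08 and 0.12, and no point was called.

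The genes whose pattern over the 4 libraries was nearest to that of Ago2 were Gm5597, Xrcc6 and Alas1, at distances of 0.034, 0.039 and 0.059 on the log2(FPKM + 1) scale. The candidates were the 3527 genes with a mean level within 2-fold of Ago2, and their median distance was 0.41. Like Ago2, each of these genes was lowest in knockdown replicate 2 and highest in control replicate 2; with 4 libraries such likeness is a description only.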

How the data were processed

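Polyadenylated RNA of 4 samples was sequenced on an Illumina NextSeq after SMART-Seq v4 amplification, per the labels' protocols. Listed in the submitters' processing notes, without roles, are StringTie 1.3.3, HISAT2 2.1.0, SAMtools 1.3, Trimmomatic 0.36, bcl2fastq 2.19 and the mm10 build. Neither the gene annotation used nor strandedness is stated there. The authors deposited 1 FPKM value for each gene in each sample, a unit inferred from the numbers themselves. Amplified cDNA and transcript-level assignment can both move values of long or overlapping genes.

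In genes with 1 exon and 1 transcript, 85.6% to 86.2% of low values multiplied by length fell on whole multiples of 1 step, within 0.1 of a step, where chance gives 20.0%; that step, taken as 1 read base, gave the depth. No whole reads were recovered for genes with several transcripts, so no count model was used.

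Genes averaging 1 FPKM or more entered limma 3.58.1 in R 4.3.3 on log2(FPKM + 1), two-sided, with a mean-variance trend and Benjamini-Hochberg adjustment over all 10900 genes. Fold changes of low genes come out too small on this scale. Degrees of freedom were 2 residual and 4.09 prior, and the median half-width of its 95% intervals was 0.48. Sums and shares used exact permutation over samples. Steps were tested on simulated data. Positions came from GENCODE M21 (GRCm38) and sequences from RefSeq (GRCm38.p6). The members and lists were chosen with earlier results of these data known. All members are named, and from each list any called gene, otherwise the pair of lowest p, plus the most abundant. Alternatives were a replicate block, other pseudocounts, filters and scalings, no trend and leaving out each library. Python 3.11.15, pandas 2.3.3, numpy 2.4.6 and matplotlib 3.10.9 were used for tables and plots.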

Additional observations from a re-analysis of the deposited data

How the results depend on the processing

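No alternative that gave a test called a member, and the lowest adjusted p of a member was 0.536, for Dgcr8 without knockdown replicate 1. Leaving out 1 library gave log2 fold changes of -0.20 to 0.011 for Ago2, -0.15 to 0.39 for Dicer1 and -0.13 to 0.030 for Tnrc6a, each crossing 0, as did Ago4 and Tnrc6c; Dgcr8 ran from 0.18 to 0.47 and Drosha from 0.07 to 0.24. It gave -1.45 to 0.41 FPKM for the difference in summed Argonaute level and -0.21 to 0.65 for that in summed Tnrc6 level, which was -0.034 with quantile normalization. It gave -3.50 to -1.48 and -10.5 to -3.26 percentage points for the differences in Ago2 and Tnrc6a share, and 1.35 to 2.97 FPKM for that in the summed Dicer1, Drosha and Dgcr8 level; the causes were not tested. Over all genes, 1 was called higher and 5 lower. The higher count was 2 with a pseudocount of 0.1, 2 with median ratio scaling, 0 with no filter, and 2 to 4 with 1 library left out. The lower count was 2 with the replicate block, 3 without the trend, 0 with no filter, and 2 to 11 with 1 library left out. With no filter, limma gave 1508 of 24969 genes an unadjusted p under 0.05. Same-numbered libraries did not deviate together (correlation -0.021), and the numbers were taken to name samples only. Neither this correlation nor the labels can tell whether replicates were paired. In this balanced design a replicate block cannot move a mean difference (0.32 for Dgcr8), only its p. With the block the limma adjusted p of Dgcr8 was 0.807, against 0.768 without it. The block changed no call of a member. Leaving out a library assumes that the lone sample of its group varies like the others. Adding the hairpin rows that share Dgcr8 exons was chosen after the annotation was seen. Ago4 rests on the fewest reads of the members, 0 to 106 per library, and the interval of Tnrc6c reached 0.96 on the log2 scale.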
